A study of Drosophila melanogaster with 6 samples.

Results

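The JAK-STAT pathway and its Turandot target genes were followed through the probe sets that the platform annotation assigned to a single gene among 10: the ligands upd2 and upd3, the receptor dome, the kinase hop, the transcription factor Stat92E, the feedback inhibitor Socs36E, and the stress peptides TotA, TotC, TotM and TotX. Of these 10 genes, 4 had such a probe set, 1 each: upd2, dome, Stat92E and TotC, out of 11982 genes named on the array. The other 6, hop, Socs36E, upd3, TotA, TotM and TotX, had no probe set under their own name in the annotation used here and were not analysed here. The arrays were Affymetrix Drosophila arrays hybridised with RNA from whole male flies of strain W1118, labelled wild type. W1118 is a white-eyed laboratory stock. The LCA group had fed for 30 days on medium supplemented with lithocholic acid, a bile acid of vertebrates, at 50 µmol/l, and the control group had fed for the same time on control medium. Each group had 3 arrays, each from a pool of 10 flies aged 30 days, so a value averages over individuals and tissues. The comparison of diets belongs to a study of lithocholic acid and fly lifespan.

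In flies, cytokines of the Unpaired family bind the receptor Domeless, which activates the kinase Hopscotch, and the kinase phosphorylates Stat92E, the STAT transcription factor of the fly. Stat92E then enters the nucleus and switches on target genes, among them its own inhibitor Socs36E and, in the fat body of stressed or infected flies, the Turandot genes, whose small secreted peptides collect in the haemolymph. Stat92E is regulated mainly by phosphorylation, which arrays do not measure.

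The 6 arrays were deposited on a shared scale, and their median log2 signals lay between 6.38 and 6.39 in LCA arrays and between 6.31 and 6.35 in control arrays. A leading principal component with 54.1% of the variance put LCA arrays between 7.43 and 21.4 and control arrays at −42.7, −15.4 and 11.97. Control replicate 1, at −42.7, stood apart, and each member's difference without it is given with its result. Nothing in the labels says that pools came from separate cultures, so p-values here cover only the differences between these 6 pools, which may in part be technical. In bulk RNA of whole flies, fewer cells of a type and less RNA per cell cannot be told apart.

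Among the measured pathway parts, the transcription factor Stat92E had a lower signal in the LCA arrays, and the receptor dome lay close to the control level. The ligand upd2 did too, but its signal was so dim that it may not be above background. The kinase hop and the ligand upd3 were not measured. The Turandot target TotC varied far more between pools than between diets. No member passed the adjusted threshold: limma, adjusted over all 18769 probe sets, gave a lowest adjusted p among members of 0.160, and called 0 probe sets (0%) in the whole table at an adjusted p of 0.05, with a lowest adjusted p of 0.0697 and 3026 probe sets at an unadjusted p under 0.05. In 1 of the 4 members, Stat92E, the LCA and control arrays did not overlap, in a table where 13.2% of probe sets had all LCA arrays below all control arrays and 9.38% had them all above. At an unadjusted p under 0.05, 1 of 4 members was lower and 0 were higher, where 8.59% of all probe sets were lower and 7.53% were higher.

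**Figure D1:**
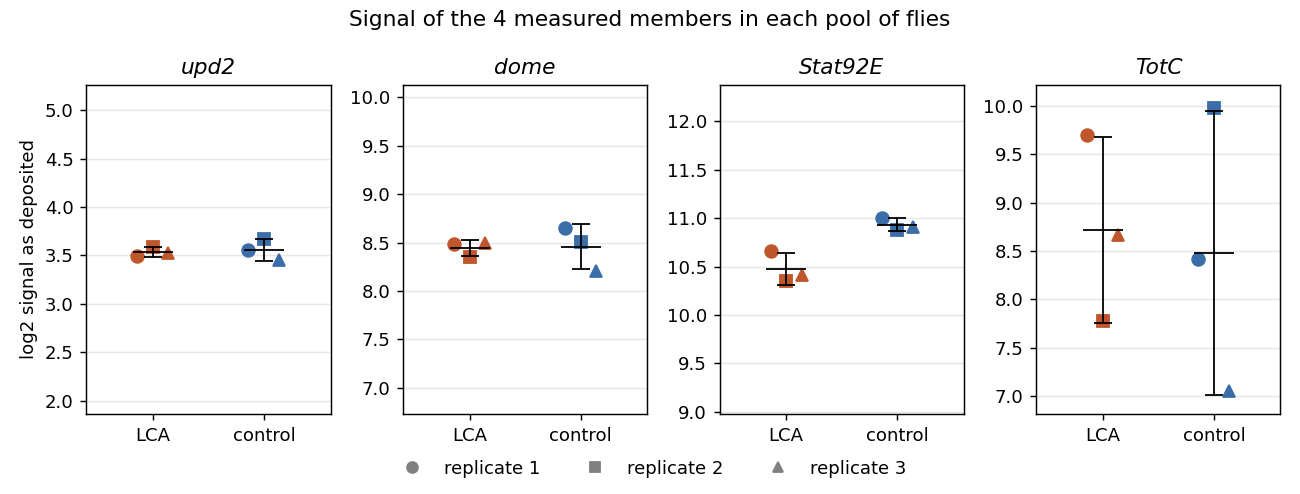
Log2 signal of the 4 measured members in each array (symbols by replicate number), with the mean and SD of each diet (n = 3 arrays). Each panel has its own vertical axis of the same height, so distances can be compared between panels but levels cannot. Stat92E was lower in all 3 LCA arrays, and TotC ranged from 7.05 to 9.98 with the diets overlapping.

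The ligand upd2 is a leptin-like cytokine that the fat body releases in fed flies. Its probe set read 3.50, 3.59 and 3.52 (log2 signal) in LCA replicates 1 to 3, against 3.55, 3.67 and 3.45 in control replicates 1 to 3. These signals exceeded only 21.1% to 25.6% of the probe sets on their arrays, and the deposited values carry no detection call, so it is not known whether upd2 RNA was above background. The diets overlapped and differed by −0.02 ± 0.09 on the log2 scale (LCA minus control, limma's SE), with a 95% interval from −0.23 to 0.19. Without control replicate 1 the difference was −0.03, and it was 0.03 without control replicate 2. The founding ligand of the family, upd1, which starts with 5 other genes between it and upd2 in the gene table, was as dim. It read 3.37, 3.28 and 3.69 in LCA arrays, against 3.33, 3.08 and 3.36 in control arrays, with overlapping diets and a difference of 0.19 ± 0.14 that turned to −0.018 with a floor at the 25th percentile of the array. It was 0.07 without LCA replicate 3 and 0.10 without control replicate 2.

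The receptor dome had 8.48, 8.35 and 8.50 in LCA arrays, against 8.66, 8.51 and 8.20 in control arrays. The LCA arrays lay within the span of the control arrays. The difference was −0.01 ± 0.13 (limma, adjusted p = 0.973), and its 95% interval, −0.32 to 0.29, leaves room for a receptor transcript at between 0.803 and 1.22 times the control level. Single arrays decided its sign: it was 0.09 without control replicate 1, 0.01 without control replicate 2, 0.03 without LCA replicate 2 and −0.14 without control replicate 3. The gene et, for eye transformer, a shorter relative of the receptor that dampens the pathway, is the direct neighbour of dome in the gene table. It read 5.21, 5.03 and 5.14 in LCA arrays, against 5.37, 5.30 and 5.38 in control arrays. All 3 LCA arrays were below all 3 control arrays. The difference of et was −0.23 ± 0.08 and did not pass (limma, adjusted p = 0.279; unadjusted p = 0.0308). It was −0.22 without control replicate 1.

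Stat92E had 10.66, 10.35 and 10.41 in LCA arrays, against 11.01, 10.88 and 10.90 in control arrays. Every LCA array was lower than every control array, and the control arrays lay within 0.13 of each other and the LCA arrays within 0.31. Stat92E averaged 10.47 ± 0.16 in the LCA arrays and 10.93 ± 0.07 in the control arrays (SD over 3 arrays a diet), a difference of −0.46 ± 0.11 (SE), or 72.8% of the control level, with a 95% interval from −0.71 to −0.21. limma gave an unadjusted p of 0.00335, the 387th smallest of 18769 probe sets, and an adjusted p of 0.160, so the difference did not pass. The exact two-sided permutation test gave p = 0.1, the smallest that 3 against 3 arrays allow. Without control replicate 1 the difference was −0.42. Its probe set carries the suffix that the manufacturer gives to probes shared by several transcripts, although the annotation names Stat92E alone.

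Marker lists of 7 tissues were read. Summed marker signals of several of them also differed between the diets, although no single marker passed (limma; lowest adjusted p 0.0983). Testis markers were higher in LCA arrays in 14 of 14 genes, with summed linear signals of 31661 to 37870.1 in LCA arrays and 15151 to 31478 in control arrays. All LCA arrays were above all control arrays in 6 of the 14 (42.9%), against 11.2% of all genes. Control replicate 1, the array that stood apart, had the lowest median deviation of these markers, −0.84. Photoreceptor markers were higher in 6 of 6, summing to 30131 to 31524 in LCA arrays and 23883 to 24251 in control arrays. Fat body markers were lower in 6 of 8, with sums of 22299 to 26947 in LCA arrays and 29525.5 to 31569.5 in control arrays. Haemocyte markers were lower in 7 of 9, with sums of 1496 to 1722 in LCA arrays and 1753 to 1969.9 in control arrays. Flight muscle markers were lower in 4 of 5, but their median difference was −0.03 on the log2 scale and the diets overlapped in each gene. Their sums were 2971 to 3365 in LCA arrays and 3437 to 3652 in control arrays. The brightest markers, Mlc2 and up, weigh most in these sums and differed by −0.03 and −0.40. Male accessory gland markers were higher in 5 of 5 and gut markers in 3 of 6, with sums that overlapped between the diets. The log2 difference between 3′ and 5′ control probe sets, averaged over 5 pairs, is a measure of RNA integrity. It was 3.50 ± 0.09 in LCA arrays and 3.24 ± 0.24 in control arrays (SD over 3 arrays a diet). All 3 LCA arrays were above all 3 control arrays, and the exact permutation test gave its smallest possible p, 0.1. The part of these tissues and of RNA integrity in the lower Stat92E signal was not tested.

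TotC, the brightest of the Turandot genes measured here, had 9.70, 7.78 and 8.66 in LCA arrays, against 8.41, 9.98 and 7.05 in control arrays. The highest and the lowest pool were both control pools, and the LCA pools lay between them. The LCA pools spanned 1.92 on the log2 scale, a 3.78-fold range, and the control pools 2.93, a 7.62-fold range. TotC averaged 8.71 ± 0.96 in the LCA arrays and 8.48 ± 1.47 in the control arrays (SD over 3 arrays a diet). Their difference, 0.23 ± 0.77 (SE; limma, adjusted p = 0.913), was smaller than the spread between pools. Its 95% interval reached from 0.334 to 4.13 times the control level, so it leaves room for a large change in either direction. Single pools set its sign and size: the difference was −0.26 without LCA replicate 1, 0.70 without LCA replicate 2, 0.98 without control replicate 2, −0.48 without control replicate 3 and 0.20 without control replicate 1.

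The spread of TotC between pools of one diet, an SD of 1.24, was the 25th largest of 18769 probe sets (0.133% had one as large). The pathway parts varied little by comparison with it: the same SD was 0.13 for Stat92E, 0.17 for dome and 0.09 for upd2, each within the bulk of the table, where 56.3%, 32.8% and 80.4% of probe sets had an SD as large. The order of the pools differed as well. TotC was highest in control replicate 2 and lowest in control replicate 3, arrays in which Stat92E read 10.88 and 10.90. In LCA arrays both genes were highest in replicate 1 and lowest in replicate 2.

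**Figure D2:**
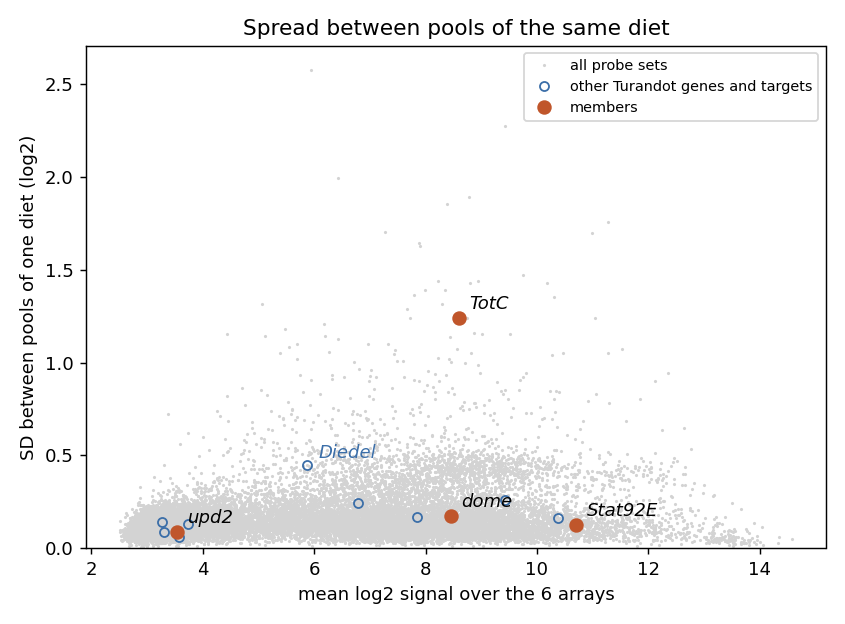
SD between pools of the same diet (vertical axis, log2, pooled over both diets with 3 arrays each) against the mean log2 signal over 6 arrays (horizontal axis) for all 18769 probe sets (grey), the 4 members (filled) and the other Turandot genes and targets (open). TotC stands far above the bulk at an SD of 1.24, while Stat92E, dome and upd2 lie within it.

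The genes nearest to TotC in pattern were CG16775, CG10912 and CG42397, known here by annotation number. They were taken among 7936 genes with a mean above the median, by the root mean square difference of deviations from each gene's own mean over the 6 arrays, which was 0.30, 0.42 and 0.44 on the log2 scale. CG16775 had 9.00, 7.14 and 8.08 in LCA arrays, against 8.36, 9.35 and 5.98 in control arrays, so its highest and lowest pools were those of TotC. All 3 shared the peak in control replicate 2 and the trough in control replicate 3, which follows largely from choosing them by closeness over these same arrays. Those 2 pools weigh heavily in a measure over 6 arrays. CG16775 stayed first or second nearest when any 1 array was left out, whereas CG10912 and CG42397 slipped as far as ranks 6 and 16.

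**Figure D3:**
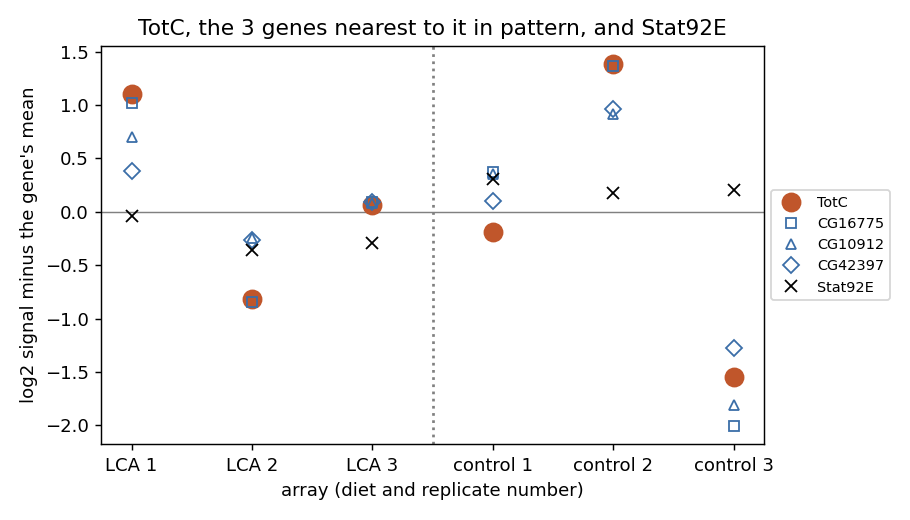
Deviation of log2 signal from the gene's own mean in each of the 6 arrays for TotC (filled circles), the 3 genes nearest to it (open symbols) and Stat92E (crosses). TotC and its nearest genes, which were chosen by closeness over these arrays, peak in control replicate 2 and dip in control replicate 3. Stat92E separates the LCA arrays on the left from the control arrays on the right.

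Of the Turandot genes outside the members, 4 of 4 had a probe set, and all were dim. The signal of the members TotA, TotM and TotX is not known. TotB, which lies next to TotC in the gene table with TotA on the other side, read 3.60, 3.28 and 3.27 in LCA arrays, against 3.16, 3.13 and 3.21 in control arrays. Its LCA arrays were all higher, by 0.22 ± 0.11 on average (limma, adjusted p = 0.364), but its signals lay under the 25th percentile of every array, and a floor at that percentile turned the difference to −0.022. TotE, TotF and TotZ differed by 0.05, −0.05 and 0.03, with overlapping diets, and no signal of theirs exceeded 3.97. Both TotB and TotE were highest in LCA replicate 1, the LCA pool in which TotC was highest. In control replicates 1 to 3 TotE read 3.70, 3.75 and 3.66, the order of TotC within a far smaller span, whereas TotB was at its lowest, 3.13, in control replicate 2, where TotC peaked. Without LCA replicate 1 TotB differed by 0.10, and TotE had a difference of −0.05 without LCA replicate 1. Turandot genes are related in sequence, and whether the TotC probes also bind RNA of a paralog was not tested.

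Other targets of the pathway moved in both directions. Of 7 listed, 5 were measured, 4 lower and 1 higher, with a median difference of −0.28 on the log2 scale, against −0.002 over all genes, and none passed (limma; lowest adjusted p 0.237, 1 at an unadjusted p under 0.05). Tep4, a thioester protein of the haemolymph, had 10.20, 10.12 and 10.41 in LCA arrays, against 10.49, 10.71 and 10.35 in control arrays, a difference of −0.28 ± 0.12, with LCA replicate 3 above control replicate 3, and −0.18 without control replicate 2. vir-1, a gene induced by viral infection, had 9.10, 9.13 and 9.50 in LCA arrays, against 9.97, 9.46 and 9.45 in control arrays, a difference of −0.38 ± 0.18 that was −0.21 without control replicate 1. Diedel, a small secreted immune regulator, differed by −0.34 ± 0.29, and by −0.03 without control replicate 2, −0.18 without LCA replicate 2 and −0.59 without control replicate 1. It read 5.95, 5.39 and 5.78 in LCA arrays, against 5.56, 6.67 and 5.92 in control arrays. Its LCA pools had the order of those of TotC and control replicate 2 was its highest pool as well, but control replicate 3, the lowest pool of TotC, was not low in Diedel, whose lowest control pool was replicate 1. Its SD between pools of one diet was 0.45, among the 4.20% largest.

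The targets chinmo and zfh1 encode zinc finger transcription factors that maintain stem cells of the testis downstream of Stat92E. chinmo had 7.90, 7.97 and 8.26 in LCA arrays, against 7.78, 7.49 and 7.66 in control arrays, higher in every LCA array by 0.40 ± 0.13 on average (limma, adjusted p = 0.237; unadjusted p = 0.0159). A further probe set of chinmo differed by 0.26 ± 0.17 with overlapping diets, and a dim one by −0.01 ± 0.10. Summed testis markers were higher in LCA arrays too. Their median deviation was 0.17, 0.30 and 0.36 in LCA replicates 1 to 3, the order of chinmo in these arrays. In control replicates 1 to 3 it was −0.84, −0.20 and 0.14. It was thus lowest in control replicate 1, where chinmo was highest among control arrays, and both rose from control replicate 2 to 3. The part of testis RNA in the chinmo difference was not tested. zfh1 differed by −0.19 ± 0.17, by −0.02 without control replicate 1, −0.12 without LCA replicate 2 and −0.35 without control replicate 3.

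In their median, regulators of the pathway lay close to the control level. All 8 listed genes were measured, 5 lower and 3 higher, with a median of −0.04 and 0 past the threshold (limma; lowest adjusted p 0.312, 0 at an unadjusted p under 0.05). Stam, an endosomal adaptor that sorts receptors, had the largest difference of the 8, with 9.59, 9.48 and 9.64 in LCA arrays, against 9.96, 9.93 and 9.62 in control arrays (−0.27 ± 0.11). With single arrays left out it lay between −0.38 and −0.21 (limma, adjusted p from 0.0673 to 0.586). The SOCS family members Socs16D and Socs44A, the tyrosine phosphatase Ptp61F, the repressor ken, BRWD3 and the endosomal protein asrij had differences between −0.10 and 0.11 by the brightest probe set of each. Of these, asrij had all LCA arrays (8.70, 8.70 and 8.86) above all control arrays (8.67, 8.66 and 8.60). The probe sets of Su(var)2-10, the PIAS protein that inhibits Stat92E, pointed in opposite directions, at 0.13 ± 0.15 for the brighter and −0.26 ± 0.12 for the dimmer. The diets overlapped in the brighter, whereas the dimmer had all LCA arrays below all control arrays (limma, adjusted p = 0.334). The brighter was at −0.004 without control replicate 1.

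**Figure D4:**
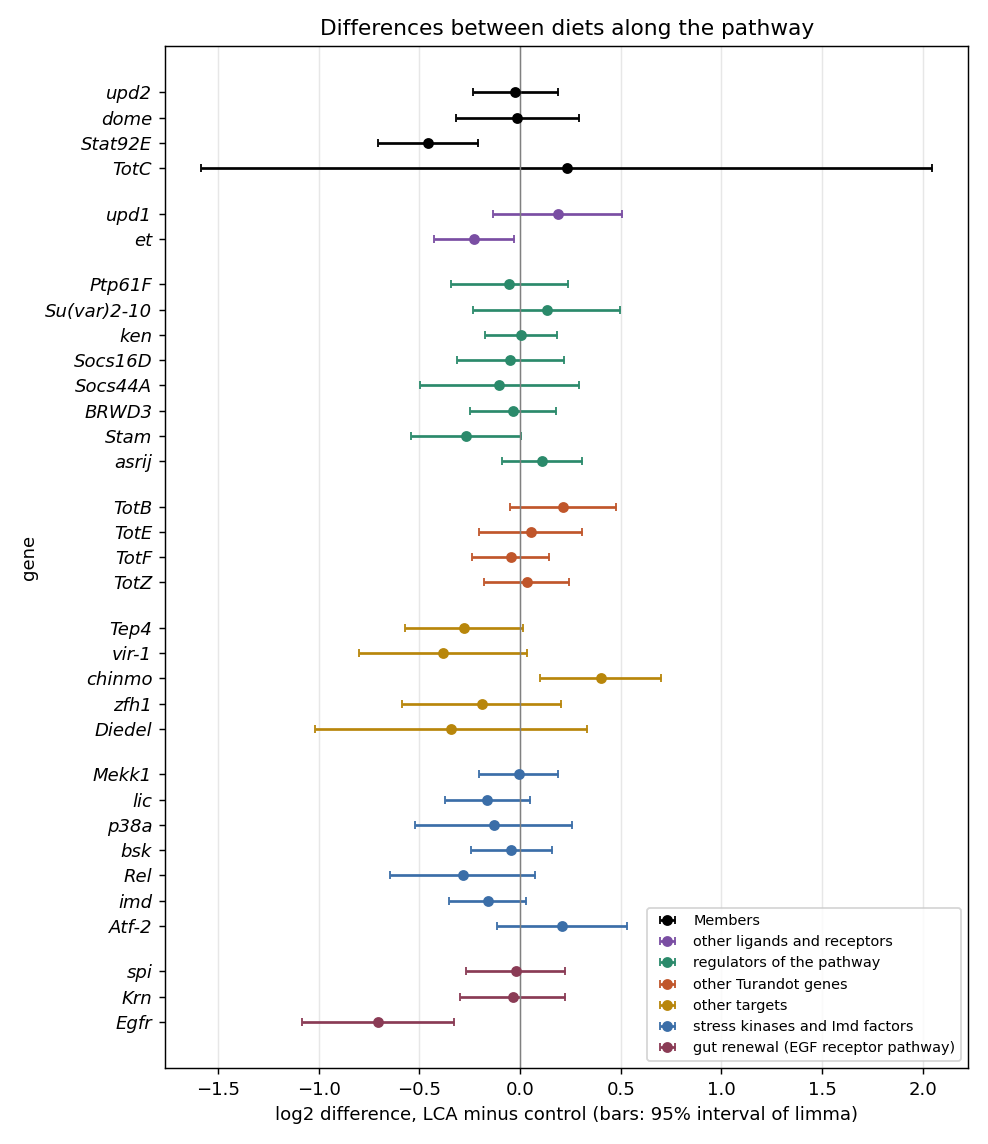
Log2 difference, LCA minus control, for the members and for each measured gene of the pathway lists (points, 1 probe set a gene), with limma's 95% interval (bars; 3 arrays per diet). Stat92E, et and Egfr lie left of 0 and chinmo right of it with intervals that do not cross 0 before adjustment. TotC has the widest interval.

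Turandot genes also answer to stress kinases and to the Imd pathway of immunity. Of 9 such genes, 7 were measured, 6 lower and 1 higher, with a median of −0.13 that was −0.01 without control replicate 1, and 0 passed (limma; lowest adjusted p 0.354, 0 at an unadjusted p under 0.05). The adaptor imd differed by −0.16 ± 0.08 and lic, a MAP kinase kinase of the p38 kinases, by −0.16 ± 0.09, both with all LCA arrays below all control arrays, and lic by −0.09 without LCA replicate 3. Rel, the NF-κB factor of the Imd pathway, differed by −0.29 ± 0.15, and by −0.14 without control replicate 1. Atf-2, a transcription factor that p38 kinases phosphorylate, differed by 0.21 ± 0.14, and by 0.33 without control replicate 1 and 0.11 without control replicate 3. In the gut, Unpaired cytokines act together with ligands of the EGF receptor during renewal of the epithelium. Egfr had 7.23, 7.33 and 6.74 in LCA arrays, against 7.72, 7.85 and 7.85 in control arrays, with every LCA array lower (difference −0.70 ± 0.16; limma, adjusted p = 0.156; unadjusted p = 0.0031). Its ligands spi and Krn lay at −0.02 ± 0.10 and −0.04 ± 0.11, and at 0.06 and 0.04 without control replicate 1.

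Over all 6 lists of further pathway genes, 29 of 35 genes were measured, 20 lower and 9 higher, with a median of −0.05 on the log2 scale. Of all 11982 genes, 6031 were lower, with a median of −0.002. The median deviation of the listed genes was highest in control replicate 1, at 0.11, where that of all genes was 0.06. The LCA arrays were all lower in 4 (13.8%) and all higher in 3 (10.3%), close to the 15.0% and 11.2% of all genes, each read by its brightest probe set.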

How the data were processed

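RNA of 6 pools of whole flies (3 LCA, 3 control, grouped by sample title) was extracted with TriFast and labelled with biotin for 1-colour arrays, per the labels' protocols. The authors deposited 1 table of log2 signals. The log2 scale was read from its range, and how probes were summarized, background-corrected and normalized is not given in the sources used here. Sorted values of the arrays lay within 0.102 of their mean, so a change in most transcripts at once would be hidden, and without detection calls dim signals have no known lower limit. The number of arrays limits the precision.

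Of 18952 probe sets, 183 controls were left out. Of the other 18769, 13647 had 1 gene in GEO's platform annotation, with symbols updated through the gene table of RefSeq's Release 6 assembly (13544 matched), 402 had several and 4720 had none here. The probe set with the highest mean stood for a gene in lists. limma 3.58.1 in R 4.3.3 (lmFit, eBayes, no covariate, LCA minus control) was fitted to all 18769, with Benjamini-Hochberg adjustment and a threshold of 0.05. Simulated arrays had these means and limma's moderated spreads, with 200 of 18769 probe sets changed, 50 of each size. On them it recovered 40% of 1.5-fold and 86% of 2-fold changes and called 9 unchanged probe sets. Their noise was drawn independently for each probe set and array, unlike real arrays such as control replicate 1, which stood apart.

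The members and lists were chosen with earlier results of these data known. Named were all members, genes of the first 4 lists, up to 4 genes with the smallest p of the last 2, and the 3 genes nearest to any member with an SD of at least 0.3 over arrays, which was TotC alone. Alternatives were quantile normalization, median centring, filters on dim probe sets, a floor, a trended robust spread, a replicate block, each array left out and another choice of probe set.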

Additional observations from a re-analysis of the deposited data

How the results depend on the processing

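Stat92E stayed short of the threshold under all 13 alternatives, between −0.55 and −0.39 with limma's adjusted p from 0.0700 to 0.454. Its direction held, but leaving out an array could not turn it, because every LCA array was below every control array. The filters, the trended robust spread and the replicate block leave the difference itself unchanged. No other member was called under any alternative. A floor at the 25th percentile of each array gave 6 calls in the whole table, none of them a member's, against 0 under the other alternatives. Leaving out single arrays gave ranges of −0.076 to 0.034 for upd2, −0.14 to 0.086 for dome and −0.48 to 0.98 for TotC, and 0 calls each time. Quantile normalization put upd2 at 0.0028 and the dim chinmo probe set at 0.0059. The floor put upd1 at −0.018 and both TotB and TotZ at −0.022, and median centring put TotZ at −0.015. Leaving out arrays gave −0.051 to 0.11 for TotE, −0.035 to 0.075 for TotZ, −0.069 to 0.070 for the dim chinmo probe set, −0.0039 to 0.25 for the brighter Su(var)2-10 probe set, −0.098 to 0.062 for spi and −0.135 to 0.044 for Krn. The median of the pathway parts (upd2, dome and Stat92E) was −0.02, and −0.24 under both filters on dim probe sets, which leave out upd2, so that upd2 has no value there. It was −0.14 without control replicate 3. The cause of the other changes was not tested. Whether the replicate numbers pair the arrays is not known. Deviations of same-numbered arrays correlated at 0.26, −0.02 and 0.02 over probe sets, and LCA replicate 2 correlated with control replicate 3 at 0.26. Deviations from a diet's own mean depend on each other, so these correlations cannot decide it. The replicate block left 0 calls, with Stat92E at an adjusted p of 0.165. The ranks of genes nearest to TotC were recomputed after seeing the data. Signal over background is unknown, which limits what upd2, upd1 and the dim Turandot genes can show.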
